A study of Mus musculus with 2 samples.

Results

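The dual-specificity MAP kinase phosphatases were taken as 10 genes: Dusp1, Dusp2, Dusp4, Dusp5, Dusp6, Dusp7, Dusp8, Dusp9, Dusp10 and Dusp16. A member was measured where at least 1 probe set was named to that gene alone. This held for 6 of the 10 genes, with 8 probe sets, out of 10313 genes measured in all. Dusp1, Dusp2, Dusp4 and Dusp5 had no such probe set, nor one shared with other genes in the annotation used here, and were not measured. The data came from 2 Affymetrix expression arrays of total RNA from mouse embryonic stem cells of the line 46C, a line with a green fluorescent protein reporter at the Sox1 locus. One array held control cells and the other held cells that overexpress the long noncoding RNA lincU. The control and the overexpressing culture both grew on feeder cells in 15% serum with leukaemia inhibitory factor (LIF) at 1000 U/ml, and the feeder cells were taken off before RNA extraction. How lincU was overexpressed, and whether the cells were a clone or a pool, was not stated in the labels.

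MAP kinase phosphatases switch off MAP kinases by removing the phosphates from both the threonine and the tyrosine of the kinase activation loop. Dusp6, Dusp7 and Dusp9 encode cytoplasmic enzymes that prefer ERK. Dusp1, Dusp2, Dusp4 and Dusp5 encode nuclear enzymes whose genes are switched on within minutes to hours by growth factors and stress, and Dusp8, Dusp10 and Dusp16 encode enzymes that prefer the stress kinases JNK and p38. In mouse embryonic stem cells, ERK signalling driven by FGF4 moves cells out of the naive state, and the X-linked gene Dusp9 is known as one of its brakes. The study's account is that lincU restricts ERK through DUSP9. The arrays measured RNA, so the amount, stability and activity of the DUSP9 protein were not measured here.

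The signals are log2 values, 1 per probe set and array. A gene was called bright if its signal on the higher of its 2 arrays was at or above that array's median over named probe sets, 7.96 for control and 7.90 for overexpression, and dim otherwise. Signals below the 25th percentile of an array, 5.73 and 5.65, were raised to that floor, and a probe set under it on both arrays was given a difference of 0. Differences are log2 signal in overexpressing cells minus control, and 5609 genes were bright. With 1 array per group there is no replicate error and no test. The only repeats on these arrays were several probe sets of 1 gene, and their differences varied within a gene with an SD of 0.23 over 1732 genes, from 0.30 in the lowest of 3 signal groups of these genes to 0.17 in the highest. Of 10 embryonic stem cell markers 9 were measured and all were bright, with control signals from 10.64 to 14.85, and the 5 endoderm markers were all dim. The stem cell markers differed by -0.43 to 0.65, with 5 higher and 4 lower in the overexpressing cells. Of 4 neural markers 3 were bright, with Pax6 and Tubb3 higher in the overexpressing cells by 0.88 and 0.62 and Nes at -0.66. Pax6 read 7.38 in control and was bright through the overexpression array alone, which favours a difference above 0. Of 13 feeder fibroblast markers measured, 11 were bright, none was at 0, and the collagen gene Col1a2 stood at 10.37 and 10.26. Their median difference was 0.01. Log2 of their summed signal, to which the fibronectin gene Fn1 gave the largest share, was 13.81 in control and 14.00 in overexpressing cells, with Fn1 at 12.72 and 13.01. Their part in the Dusp values was not tested. In RNA from a whole culture, fewer expressing cells and less RNA per cell cannot be told apart.

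Among the measured Dusp genes, Dusp9 differed little between the arrays, Dusp6 had a lower signal in the overexpressing cells, and Dusp16 a higher one. Dusp7, Dusp8 and Dusp10 were dim on both arrays. Of the 3 bright members 1, Dusp16, was at least 1.5-fold higher, beside 4.65% of all bright genes. None was at least 1.5-fold lower, beside 6.69% of all bright genes. None reached 2-fold in either direction, a mark passed upwards by 1.53% and downwards by 1.3% of all bright genes. Over the 6 measured members the median difference was -0.17, with 2 above and 4 below 0. The median was 0 over all genes, of which 38.1% were above and 42.1% below 0. These shares count 2033 genes set to 0 by the floor, among them none of the 6 members. The 3 bright members had a median of 0.10, beside 0.00 for all bright genes.

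**Figure D1:**
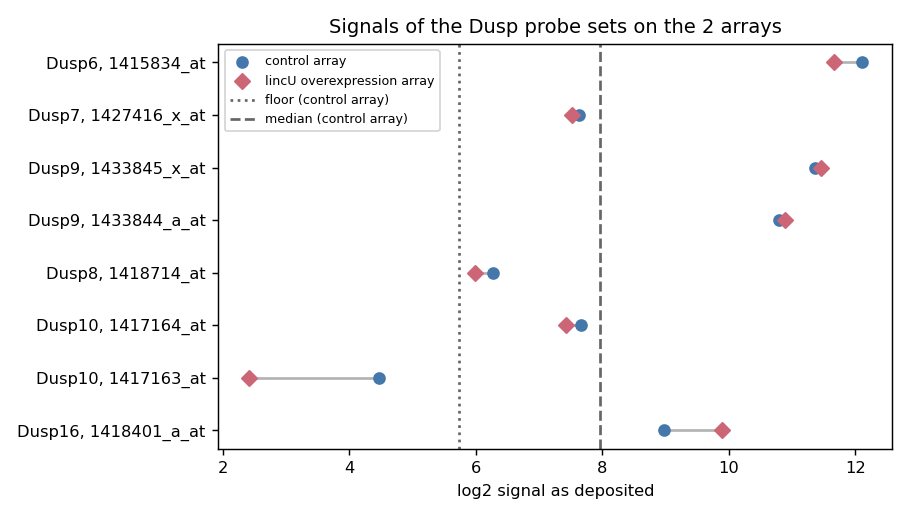
Log2 signal as deposited (horizontal axis) of each of the 8 Dusp probe sets (rows) on the control array (blue circles) and the lincU overexpression array (red diamonds). Dotted and dashed lines mark the floor and the median of the control array. The 2 symbols of each Dusp9 probe set nearly coincide, those of Dusp6 and Dusp16 lie apart in opposite directions, and the rows of Dusp7, Dusp8 and Dusp10 lie left of the median. Levels of different probe sets are not comparable with each other.

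Dusp9, the ERK phosphatase gene at the centre of the study's account, was read by 2 probe sets. Probe set 1433845_x_at read 11.37 in control cells against 11.46 with lincU overexpressed. Probe set 1433844_a_at read 10.79 in control cells against 10.89 with lincU overexpressed. Both probe sets were bright on both arrays and slightly higher in the overexpressing cells, by 0.10 each, or 1.07-fold. Both were designed from the same sequence record, so they share their target and are not independent measurements of the gene. A difference of this size was common, as 71.6% of bright genes differed at least as much as 1433845_x_at in one direction or the other. It was also smaller than the within-gene SD of 0.17 in the highest signal group, where this probe set lay. In that group, 62.4% of 1937 bright genes differed at least as much. Across 7 other ways of processing the values the Dusp9 difference lay between 0.08 and 0.15. Both probe sets are of types that can bind more than 1 transcript, named _a_at and _x_at, and no other probe set of Dusp9 was measured.

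Dusp6 encodes the cytoplasmic ERK phosphatase whose own transcription follows ERK activity, which makes it a widely used readout of the pathway as well as a brake on it. Its single probe set, 1415834_at, read 12.10 in control cells against 11.67 with lincU overexpressed. The log2 difference was -0.43, with the control array 1.35-fold higher. This lay short of the 1.5-fold threshold. Of all bright genes, 11.4% were at least as low, and in the highest signal group, where Dusp6 lay, 4.34% were. Counting either direction, 19.3% of all bright genes and 8.98% of that group differed at least as much. The difference was larger than the within-gene SD of 0.17 in that group, an SD that holds no variation between cultures. Under 8 other ways of processing, the Dusp6 difference kept its sign and lay between -0.46 and -0.38.

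Dusp7 encodes the remaining cytoplasmic ERK phosphatase of the family. Its probe set 1427416_x_at read 7.63 in control cells against 7.52 with lincU overexpressed, a log2 difference of -0.11. It was below the median of both arrays, and of dim genes 45.8% differed at least as much. Under 7 other ways of processing the Dusp7 difference lay between -0.11 and -0.01, and it was -0.01 with quantile normalization. The 3 ERK-selective members had a median of -0.11, which is the Dusp7 value and moved with it where Dusp7 was kept. Without probe sets with names ending in _s_at, _x_at or _a_at, Dusp6 alone was left, at -0.43.

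Dusp16 encodes a phosphatase that binds and inactivates JNK and p38. Its single probe set, 1418401_a_at, read 8.98 in control cells against 9.89 with lincU overexpressed. The log2 difference was 0.91, or 1.88-fold. Dusp16 differed most of the bright members, and 1.93% of all bright genes were at least as high. In the lowest signal group, where Dusp16 lay and where the within-gene SD was 0.30, 6.81% of 2202 bright genes differed at least as much in one direction or the other. Under 7 other ways of processing the difference lay between 0.84 and 0.96. The probe set is of the _a_at type, and no other probe set of Dusp16 was measured.

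Dusp8 and Dusp10, the other members that act on JNK and p38, were dim. Probe set 1418714_at of Dusp8 read 6.27 in control cells against 5.98 with lincU overexpressed, a log2 difference of -0.29. With the floor set at the 40th percentile it was under the floor on both arrays, with a difference of 0. Probe set 1417164_at of Dusp10 read 7.66 in control cells against 7.42 with lincU overexpressed, a log2 difference of -0.23. A second Dusp10 probe set, 1417163_at, stood at 4.46 and 2.41, under the floor on both arrays, and so gave no difference. The 3 members of this group thus did not share a direction, with Dusp16 higher and bright and the dim pair lower.

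**Figure D2:**
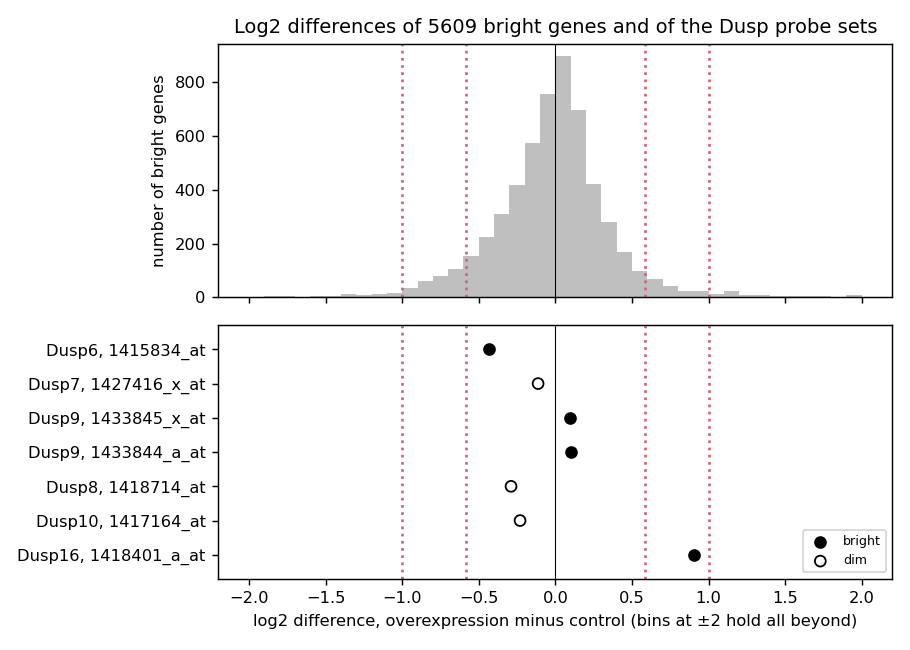
Top, number of bright genes (vertical axis) by log2 difference, overexpression minus control (horizontal axis, bins of 0.1); bottom, the same difference for each Dusp probe set above the floor, with filled circles for bright and open circles for dim probe sets. Dotted lines mark 1.5-fold and 2-fold. Dusp16 at 0.91 is the only probe set past 1.5-fold, Dusp6 stands at -0.43, and both Dusp9 probe sets stand at 0.10 in the middle of the distribution.

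The chromosome around each measured member was described by its 5 nearest bright genes on either side, in the gene order of assembly GRCm38.p6. For Dusp16, on chromosome 6, 8 of the 10 neighbours were higher in overexpressing cells, with a median of 0.34 and a range from -0.49 to 1.16. The nearest on its sides, Lrp6, a WNT co-receptor gene, and Gpr19, a receptor gene, differed by 0.28 and 0.19. Dusp16 stood 0.56 above the median of its neighbours. This gap lay between 0.51 and 0.66 under the 7 other ways of processing, on either side of the 0.58 that equals 1.5-fold. With 10 genes on either side the neighbours' median was 0.36, with 16 of 20 higher, while the 275 bright genes of chromosome 6 had a median of 0.10. The part of the chromosome in the Dusp16 difference was not tested.

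The neighbour medians of the other members lay closer to 0, between 0.01 and 0.07. The neighbours of Dusp9, on the X chromosome, had a median of 0.07, with 6 higher and 4 lower, and its nearest ones, the proteoglycan gene Bgn and the creatine transporter gene Slc6a8, differed by -0.04 and 0.43. The neighbours of Dusp6, on chromosome 10, had a median of 0.02, so that Dusp6 stood 0.46 below it on the log2 scale (-0.46). Its nearest neighbours, the antiproliferative gene Btg1 and the KIT ligand gene Kitl, differed by 0.04 and 0.58. Kitl read 7.75 in control and was bright through the overexpression array alone, which favours a difference above 0. The neighbour medians of Dusp7, Dusp8 and Dusp10 were 0.04, 0.01 and 0.06, on chromosomes 9, 7 and 1. That of Dusp8 was -0.31 when probe sets with names ending in _s_at, _x_at or _a_at were left out.

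**Figure D3:**
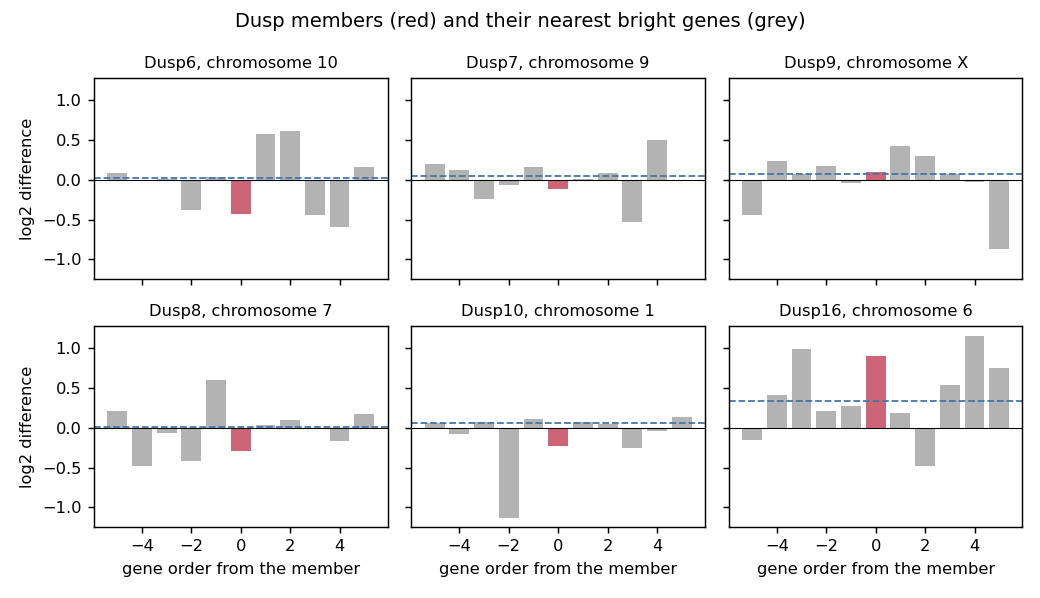
Log2 difference, overexpression minus control (vertical axis), of each measured Dusp member (red bar) and its 5 nearest bright genes on either side (grey bars), in gene order along the chromosome (horizontal axis). The dashed line is the median of the 10 neighbours. Around Dusp16 most bars point up, with a dashed line at 0.34, while the dashed lines of the other panels lie between 0.01 and 0.07.

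The promoters of the measured members were read as the 250 bases before the gene start, from RefSeq sequence of build GRCm38.p6, which held 5 of the 6 genes. Dusp9 was missing from it, so its promoter was not searched. Those of Dusp6 (chr10:99262981-99263230, plus strand) and Dusp16 (chr6:134792629-134792878, minus strand) are shown because these bright members differed most, in opposite directions. That of Dusp8 (chr7:142095285-142095534, minus strand) is shown because it alone held a match to a searched motif. The search covered both strands. Its motifs were CCGGAA, a sequence bound by ETS factors that ERK phosphorylates, TGANTCA, bound by AP-1, and TGACGTCA, the cyclic AMP response element. Other forms of the ETS site were not searched. Capitals mark matches, and the motifs overlap nowhere in these windows.
Dusp6: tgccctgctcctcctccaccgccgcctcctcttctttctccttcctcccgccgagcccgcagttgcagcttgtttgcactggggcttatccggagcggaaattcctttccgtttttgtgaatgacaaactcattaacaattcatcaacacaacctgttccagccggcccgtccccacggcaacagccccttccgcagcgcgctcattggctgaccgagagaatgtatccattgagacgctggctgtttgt
Dusp16: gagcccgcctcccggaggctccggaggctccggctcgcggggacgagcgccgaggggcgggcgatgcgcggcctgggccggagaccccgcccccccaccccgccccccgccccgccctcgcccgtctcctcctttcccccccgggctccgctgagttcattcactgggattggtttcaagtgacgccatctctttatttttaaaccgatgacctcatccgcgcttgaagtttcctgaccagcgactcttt
Dusp8: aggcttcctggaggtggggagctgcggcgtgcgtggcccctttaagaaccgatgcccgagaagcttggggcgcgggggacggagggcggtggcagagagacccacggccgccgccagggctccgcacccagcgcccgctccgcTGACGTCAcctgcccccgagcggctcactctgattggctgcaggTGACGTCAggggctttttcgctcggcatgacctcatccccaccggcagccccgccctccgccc

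The Dusp8 promoter held 2 copies of TGACGTCA, which was found in 1.55% of 32851 RefSeq promoter windows of the same length. CCGGAA was found in 12% of those windows and TGANTCA in 6.75%. The windows of Dusp6, Dusp7, Dusp10 and Dusp16 held none of the 3 motifs, which says only that these letters are not in this stretch. Both Dusp8 signals were dim.

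The substrates and activators of the pathway were described from lists of its genes. Of 13 MAP kinase genes listed, 8 were measured. Of the 6 bright ones 1 was at least 1.5-fold higher and none lower, beside the 4.65% and 6.69% of all bright genes past that mark, and their median was 0.14. That gene was Mapk8, which encodes JNK1, a substrate of DUSP16. Its signal was 9.58 in control cells against 10.90 with lincU overexpressed, a log2 difference of 1.32, with its 3 bright probe sets between 1.23 and 1.35. Mapk8 lies on chromosome 14, where all 10 of its nearest bright genes were higher too, with a median of 1.29. Nlk and Mapk9, which encodes JNK2, differed by -0.29 and 0.24. A second bright probe set of Mapk9 stood at 0.53, short of 1.5-fold.

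Of the 6 MAP kinase kinase genes measured, all bright, 2 were at least 1.5-fold lower and none higher, beside 6.69% and 4.65% of all bright genes. These were Map2k4, an activator of JNK, at -0.66 and Map2k5, the activator of ERK5, at -0.62, while Map2k6, an activator of p38, stood at 0.57. Map2k1 and Map2k2, which encode the MEK kinases that activate ERK, differed by 0.10 and 0.05. Of the JNK and p38 scaffolds and upstream kinases, 12 were measured and 4 were bright. None of the 4 passed 1.5-fold, and the differences furthest from 0 were -0.30 in Map3k4, -0.11 in Map3k12 and 0.08 in Tab2. A further bright probe set of Map3k12 went the other way, at 0.49.

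Other phosphatase genes and their relatives, not all of which act on MAP kinases, were described in the same way. Among the atypical dual-specificity phosphatases, enzymes that lack the MAP kinase binding domain, 10 were measured and 7 were bright. On their representative probe sets the 7 had a median of -0.17. None passed 1.5-fold, beside 4.65% of all bright genes higher and 6.69% lower. The differences furthest from 0 were then 0.47 in Rngtt, the mRNA capping enzyme gene, 0.38 in Dusp14 and -0.37 in Styx, which encodes a catalytically inactive relative. Dusp14 read 7.57 in control and was bright through the overexpression array alone, which favours a difference above 0. The other bright probe sets of Styx stood at -0.45 and -0.81, the last past 1.5-fold. Styx lies on chromosome 14, and its neighbours had a median of -0.31. Ptpn5 and Ptprr, which encode tyrosine phosphatases of MAP kinases, were under the floor on both arrays.

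The serine/threonine phosphatases, subunits of PP2A and members of the PPM family, had 8 measured genes, all bright, with a median of -0.16. Of these 2 were at least 1.5-fold lower and none higher, beside 6.69% and 4.65% of all bright genes. Ppm1b, a phosphatase gene of the PPM family, differed by -0.92 on its representative probe set and by -0.15 on a second bright one. Ppp2r2a, a regulatory subunit gene of PP2A, differed by -0.88 and -0.66 on its 2 bright probe sets. It lies on chromosome 14, where 9 of its 10 nearest bright genes were lower, with a median of -0.55. Ppp2r1b, a scaffold subunit gene, differed by -0.22.

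Feedback and target genes of ERK other than Dusp6 were set beside it. Of 8 Sprouty, Spred and ETV feedback genes, all bright, 2 were at least 1.5-fold lower and 1 higher. The shares of all bright genes were 6.69% and 4.65%. The list had a median of -0.19. Spry4, Spry2 and Spred1 differed by 0.84, -0.69 and -0.62. Their second bright probe sets stood at 0.43, -1.01 and -0.53, so those of Spry4 and Spred1 were short of 1.5-fold. Spry2 lies on chromosome 14 among neighbours with a median of -0.73. Of 13 immediate early genes measured, 12 had differences below 0, as did 42.1% of all measured genes, and the dim gene Egr3 stood at 0.70. That share counts 2033 genes set to 0 by the floor, among them none of the 13, so it is a low benchmark. Of the 13, 10 were bright, with a median of -0.40, and all 10 were below 0, beside 49.8% of all bright genes. Fosb and Egr2 were bright through the control array alone, which favours a difference below 0, and all 8 that were bright on both arrays were also below 0. On representative probe sets 4 were at least 1.5-fold lower, beside 6.69% of all bright genes. Fosb, Fos and Srf were furthest from 0 at -1.41, -1.06 and -0.78. For Srf and for Jun, at -0.60, a second bright probe set stood short of 1.5-fold, at -0.33 and -0.21. The 10 bright genes ranged from -1.41 to -0.01, with Dusp6 at -0.43. The dim members Dusp7, Dusp8 and Dusp10, at -0.11, -0.29 and -0.23, lay in that wide range too. No likeness of Dusp6 to these genes is drawn from it.

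**Figure D4:**
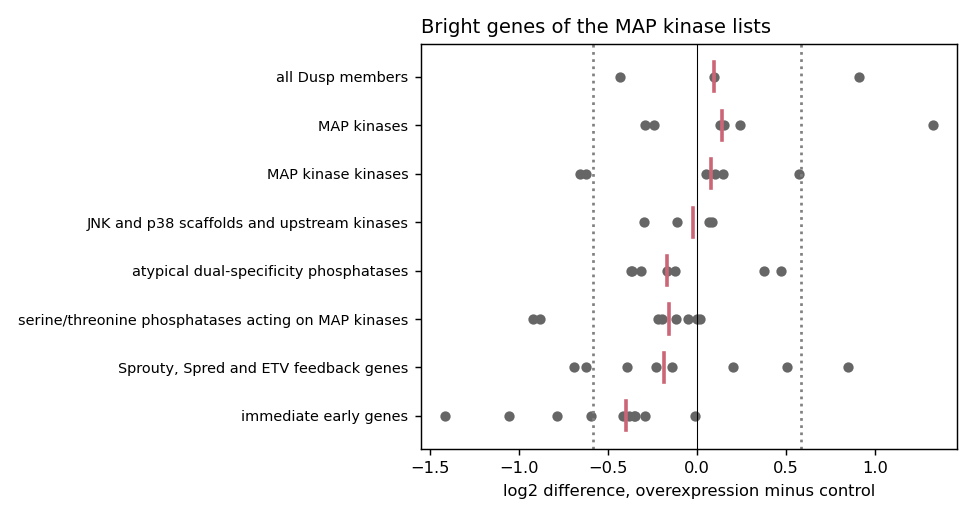
Log2 difference, overexpression minus control (horizontal axis), of each bright gene (grey points) in the Dusp family and 7 lists of MAP kinase pathway genes and other phosphatases (rows). The median of each row is a red bar. Dotted lines mark 1.5-fold. The points of the Dusp row, at -0.43, 0.10 and 0.91, spread to both sides of 0, and all 10 points of the immediate early genes lie left of 0.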

How the data were processed

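Total RNA of 1 control and 1 lincU overexpression culture was hybridised to 1 array each, per the labels' protocols. The authors deposited log2 signals; MAS5 and affy are named in the submitters' processing notes, and their scaling target was not stated there. The log2 scale was read from the values, which run from 0 to 15.26. Of 16994 probe sets 15273 had a single gene name in the platform annotation, 15252 of them matched to RefSeq (GRCm38.p6) through gene IDs; 501 with several names and 1156 with none were left out, as were 64 array controls. The table held part of this array type's probe sets.

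Values were compared as deposited, after the floor. The probe set with the highest mean signal stood for its gene, and lists are given by counts and medians. With 2 arrays in all, precision is limited by their number, and nothing was tested. Every Dusp member is reported; of each pathway list, the up to 3 bright genes furthest from 0 are named. Map2k1, Map2k2, Egr2, Egr3, Jun, Ptpn5 and Ptprr, and the neighbours of chromosome 14 genes, were chosen after their values were seen. Members and lists were chosen with earlier results of these data known. The counting rules were tested on simulated arrays at 2-fold alone, with changes larger than 2-fold and the within-gene SD as noise. The 1.5-fold counts were not covered, nor was variation between cultures. Python 3.11.15, pandas 2.3.3 and statsmodels 0.14.6 (loess) were used.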

Additional observations from a re-analysis of the deposited data

How the results depend on the processing

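Of the alternatives to the processing, Dusp16 was the 1 member counted as at least 1.5-fold higher under all but a pair. When probe sets with names ending in _s_at, _x_at or _a_at were left out, the count was 0, since the only probe sets of Dusp16, Dusp9 and Dusp7 are of these kinds. With brightness set at the 75th percentile it was also 0, because Dusp16 is then dim. The counts of members at least 1.5-fold lower, 2-fold higher and 2-fold lower were 0 under each alternative. The median over the 6 measured members was -0.17, and 0.096 with bright members alone. It was -0.06 when the floor was raised to the 40th percentile, -0.07 with quantile normalization, -0.08 after loess, -0.11 with probe sets averaged and -0.29 without the probe sets just named, where 3 members were left. Centring the array medians moved the median of all bright genes to 0.06. No paired analysis was possible because each group has 1 array. Low signal limits Dusp7, Dusp8 and Dusp10.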
